A study of Mus musculus with 12 samples.

Results

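The cytosolic ribosomal protein genes were followed in mouse bone-marrow-derived macrophages labelled Fes-/- or Fes+/+ for the tyrosine kinase gene Fes, after lipopolysaccharide (LPS) or phosphate-buffered saline (PBS). Members were chosen by name and selected on level. Their symbols begin with Rpl or Rps followed by a number, the P-stalk letter or the letter a, without pseudogenes marked -ps and without the Rps6k kinases, and their mean raw count over the 12 libraries was at least 100. The rule kept 83 of 55487 genes. It matched 94 symbols, of which 11 lay under the minimum, and it left out 319 -ps entries. Rps10 lay just inside the minimum with a mean of 100.75 counts, and the copy Rps3a2 lay just outside it with 99.92. The members comprised 31 genes of the small subunit, 42 of the large subunit, 3 of the P-stalk, 6 paralogs or copies (Rpl22l1, Rps27l, Rpl7l1, Rps4l, Rps3a3 and Rpl37rt) and Rps19bp1, whose product binds RPS19 and is no ribosomal protein. Of the 83, 80 are annotated as protein-coding, and the copies Rps4l, Rps3a3 and Rpl37rt as processed pseudogenes. The rule used no difference between groups, and all 83 passed the filter on low counts that preceded the tests.

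The macrophages were primary bone marrow cells kept in macrophage colony-stimulating factor, and their poly-A RNA was sequenced. The groups were Fes-/- macrophages given 1 µg/mL LPS for 4 hours, Fes-/- macrophages given PBS, Fes+/+ (WT) macrophages given the same LPS dose and WT macrophages given PBS with 3 libraries each. The labels name PBS, and the treatment text calls these cells untreated. How the Fes allele was made and whether the 3 libraries of a group came from separate mice are not given in the sources used here. The sample titles mark the libraries of a group as Biol with a number, without saying what was replicated. The p-values below thus measure the spread between these libraries, which may not be that between mice. Totals ranged from 61016254 to 101027166 counts, of which the members held 1193222 to 2311127 per library. Fes itself averaged 16.3 TPM, transcript abundance scaled to a fixed library sum in Fes-/- LPS, 64.9 TPM in Fes-/- PBS, 77.0 TPM in WT LPS and 164 TPM in WT PBS libraries. The size of its LPS change depends on the scale. On the scaled counts tested below, its log2 fold change, LPS over PBS, was -0.15 ± 0.07 in WT (SE; edgeR adjusted p = 0.0744, not called). In Fes-/- it was -1.02 ± 0.07 (edgeR adjusted p = 5.67e-09). Its log2 fold change, Fes-/- over WT, was -2.26 ± 0.07 under LPS and -1.38 ± 0.07 under PBS (SE; edgeR adjusted p = 3.23e-10 and 6.16e-08), and these differed (-0.87 ± 0.10, adjusted p = 0.00556). Fes was thus lower in every library labelled Fes-/- than in WT under the same treatment, but it was not absent there, with 1557 to 2582 counts under LPS and 5946 to 6520 under PBS. Whether these counts come from parts of the gene that the allele leaves in place was not tested. All 8 macrophage markers were present, and the erythroid, fibroblast and dendritic cell lists had no marker averaging over 1 CPM (counts scaled to library size), with 2 of the 5 erythroid markers at 0. Of the 5 B cell and the 5 T cell markers 1 each averaged over 1 CPM, Cd79b at 4.31 CPM and Cd4 at 2.27 CPM, as did 2 of the 8 markers of neutrophils and precursors.

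A cytosolic ribosome joins a small subunit, which reads the mRNA, to a large subunit, which forms the peptide bond, and each carries one copy of nearly every ribosomal protein. The P-stalk on the large subunit recruits the elongation factors. Ribosomal protein mRNAs are known for a 5′ terminal oligopyrimidine (TOP) tract, a run of C and T letters that begins with C at the transcription start, through which mTORC1 and the RNA-binding protein LARP1 set their translation and stability. Macrophages are known to reshape their transcription within hours of TLR4 sensing LPS.

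The promoter sequence around the start was examined first, because the TOP tract is the feature for which these genes are known. RefSeq promoter entries on GRCm38.p6, each holding 250 bases before and 50 bases after an annotated start, were matched by symbol for 61 of the 83 members, with 72 starts. Below are 90 bases for the 4 matched protein-coding members with the highest LPS change in Fes-/- macrophages and the 4 with the lowest. The annotated start is base 61 of each line, and capitals mark the longest run of 8 or more C or T letters that begins with C between 20 bases before and 50 bases after the start, as far as the window shows it. The windows are chr11:101442185-101442274 on the plus strand (Rpl27), chrX:37085193-37085282 on the minus strand (Rpl39), chr17:46782627-46782716 on the minus strand (Rpl7l1) and chr11:114668520-114668609 on the plus strand (Rpl38) for the highest. They are chr7:45128716-45128805 on the minus strand (Rpl13a), chr17:27635215-27635304 on the minus strand (Rps10), chr17:28328505-28328594 on the plus strand (Rpl10a) and chr10:128549139-128549228 on the minus strand (Rpl41) for the lowest.
Rpl27: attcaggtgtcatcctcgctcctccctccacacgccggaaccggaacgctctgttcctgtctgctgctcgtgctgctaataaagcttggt
Rpl39: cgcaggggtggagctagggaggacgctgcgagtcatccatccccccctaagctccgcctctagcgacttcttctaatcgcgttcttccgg
Rpl7l1: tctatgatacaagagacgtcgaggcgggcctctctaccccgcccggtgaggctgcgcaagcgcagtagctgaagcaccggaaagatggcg
Rpl38: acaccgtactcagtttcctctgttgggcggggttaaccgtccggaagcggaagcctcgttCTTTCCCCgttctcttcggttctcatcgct
Rpl13a: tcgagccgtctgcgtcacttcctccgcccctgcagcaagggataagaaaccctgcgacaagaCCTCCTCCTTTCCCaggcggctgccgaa
Rps10: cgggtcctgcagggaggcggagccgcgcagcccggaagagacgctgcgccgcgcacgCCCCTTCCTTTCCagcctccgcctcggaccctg
Rpl10a: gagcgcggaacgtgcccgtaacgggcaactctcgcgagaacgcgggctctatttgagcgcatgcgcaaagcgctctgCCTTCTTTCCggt
Rpl41: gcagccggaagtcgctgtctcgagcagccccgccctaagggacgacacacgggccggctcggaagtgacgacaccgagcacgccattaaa
In Rpl38 the tract began at the annotated first base and ran for 8 letters, in Rpl13a it began at base 3 and ran for 14, and in Rps10 it began 3 bases before the start and ran for 13. In Rpl10a it began at base 18. In Rpl39 and Rpl41 the tract began at bases 37 and 41, beyond the lines shown, and Rpl27 and Rpl7l1 had none.

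Such a tract was found at 49 of the 72 starts of members (68.1%), against 20% of all 32851 starts in the table, searched on the transcribed strand. A C at the annotated first base with 4 further C or T letters, which can lie inside the longer tract, was found at 18.1% of members' starts and 2.51% of all starts. CCGGAAG, the site of ETS factors such as GABP, was found on either strand in 36.1% of members' entries and 8.86% of all entries. GGGCGG, the GC box, was found in 62.5% and 35.7%, AAGATGG, which holds the core of the YY1 site, in 16.7% and 6.34%, and the MYC site CACGTG in 11.1% and 7.15%. TATAAA, the TATA box, was found in 9.72% of members' entries and 13.6% of all entries, and CCAAT, the NF-Y site, in 30.6% and 37.4%. These counts describe letters in a window and no binding was measured. The LPS change described below was also read with and without the tract, with no test. In Fes-/- macrophages the median log2 fold change was 0.26 for the 47 members with it and 0.24 for the 14 without, and in WT macrophages 0.25 for both.

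The level of each gene per unit of length spanned a wide range, given here in TPM. Of the 76 small-subunit, large-subunit and P-stalk members, the 74 besides Rpl13a and Rps10 averaged 104 to 3522 TPM over the 12 libraries, with a median of 558 TPM and quartiles of 317 and 861 TPM. The highest level was that of Rplp1, a P-stalk protein. It had 2592, 2374 and 2669 TPM in Fes-/- LPS and 4076, 4410 and 4886 TPM in Fes-/- PBS libraries, and 2853, 2605 and 2568 TPM in WT LPS and 4369, 4476 and 4383 TPM in WT PBS libraries. Within each group every Rplp1 library lay above every library of the next members. Rps15, of the small subunit, averaged 1679 TPM, Rplp0, the base of the stalk, 1636 TPM, Rps29 1518 TPM and Rps3a1 1423 TPM, and the Rps15 and Rplp0 libraries overlapped in each group. The 10 highest members held 31.6% of the members' TPM. The paralogs and copies were low, from 77.9 TPM for Rpl7l1 and 53.4 TPM for Rpl22l1 to 6.90 TPM for Rps3a3. TPM divides by the summed exon length, which includes long alternative forms, so that Rps15a, with 6270 exonic bases, stood lowest of the 74 at 104 TPM. Rplp1, at the other end, has 499 exonic bases, and 60% of its 50-base words occur in other gene models. Its mean raw count was 35483, below those of Rplp0 (54973), Rpsa (52833) and Rpl4 (49954) among others, so its rank holds for TPM only.

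**Figure D1:**
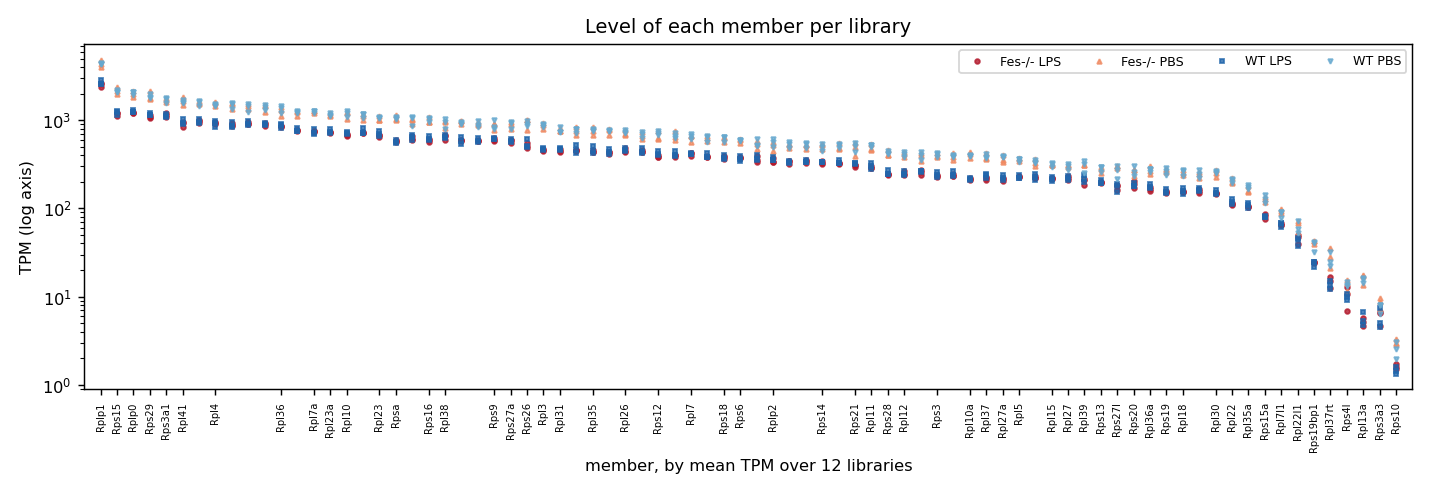
Level of 80 of the 83 members in each of the 12 libraries, in TPM on a log axis, with members in order of their mean and names for those described in the text. The PBS libraries lie above the LPS libraries of the same genotype for most members, and Rpl13a (mean 10.5 TPM) and Rps10 (mean 2.15 TPM) stand among the paralogs and copies at the low end.

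Rpl13a and Rps10 stood apart from their subunit partners. Rpl13a encodes a large-subunit protein that, in human monocytes, is known to leave the ribosome after interferon-gamma and to silence inflammatory mRNAs (the GAIT system). It averaged 10.5 TPM, and Rps10, a small-subunit protein, 2.15 TPM. Rpl13a (GRCm38 chromosome 7, 45125558 to 45128761, minus strand) shares 748 of its 2114 exonic bases (35.4%) with other gene models, 621 of them with Gm45713 on the same strand, which had 0 counts in the table. Rps10 (chromosome 17, 27630418 to 27636669, minus strand) shares 664 of 2311 exonic bases (28.7%), 475 of them with the readthrough model RPS10-NUDT3 on the same strand, also at 0 counts. Rpl24, a large-subunit gene, was left out by the rule at a mean of 30.2 counts, and 484 of its 1030 exonic bases are shared with Gm28037 at 0 counts. Whether reads in shared exons were dropped by the counting was not tested, so the levels of these genes are uncertain. Members also resemble processed copies elsewhere in the genome: a median of 20.8% of a member's 50-base words occur in another gene model, and Rpl36 (81.1%), Rps3a1 (71%) and the copy Rps3a3 (65.1%) had the highest shares. Counts of such members can be split with their copies.

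Under LPS the members took a smaller share of each library, and per library total the median gene fell further than they did. Their share of all counts was 1.90%, 1.90% and 1.84% in Fes-/- LPS libraries, against 2.85%, 2.78% and 3.27% in Fes-/- PBS libraries. In WT it was 2.06%, 1.83% and 1.88% under LPS, against 3.02%, 2.84% and 3.22% under PBS. The LPS and PBS libraries did not overlap in either genotype, and the mean share under LPS was 0.635 of that under PBS in both. No p is given for these sums over members. The share of TPM was 3.82% ± 0.028 in Fes-/- LPS and 6.21% ± 0.393 in Fes-/- PBS, and 3.90% ± 0.181 in WT LPS and 6.25% ± 0.298 in WT PBS libraries (SD, n = 3 each).

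After scaling with TMM factors, which set the trimmed mean of the log ratios between libraries level, the same members stood higher under LPS. The factors were 0.728 to 0.731 in Fes-/- LPS and 1.38 to 1.40 in Fes-/- PBS libraries, and 0.707 to 0.737 in WT LPS and 1.35 to 1.38 in WT PBS libraries. On this scale the members summed to 26167, 26149 and 25222 CPM in Fes-/- LPS, against 20376, 19828 and 23760 CPM in Fes-/- PBS. In WT they summed to 27920, 25832 and 25927 CPM under LPS, against 22354, 20934 and 23347 CPM under PBS. The LPS libraries lay above the PBS libraries in both genotypes, at 1.21 times the PBS mean in Fes-/- and 1.20 times in WT. Direction thus depends on the scale, and the changes below are log2 fold changes on the TMM scale unless another is named. Without the factors the median log2 fold change of all 15801 tested genes moved to -1.02 in Fes-/- and -0.98 in WT, against -0.08 and -0.07 on the TMM scale. In these bulk samples fewer cells of a type and less RNA per cell cannot be told apart, and no external RNA standard was used here.

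**Figure D2:**
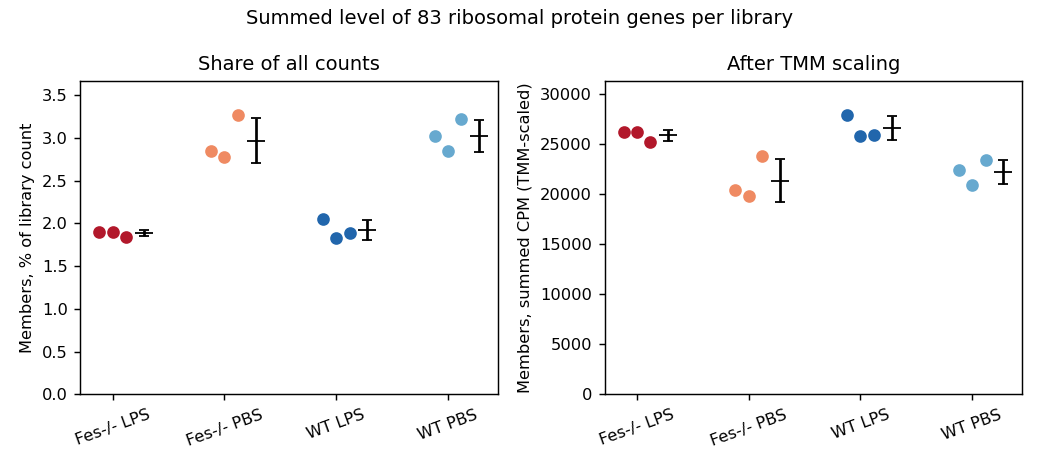
Summed level of the 83 members in each library, as a percentage of the library's counts (left) and as TMM-scaled CPM (right). Points are libraries, bars the mean and SD of 3; the LPS libraries of each genotype lie below its PBS libraries on the left and above them on the right.

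By the edgeR quasi-likelihood test with Benjamini-Hochberg adjustment over all 15801 genes, called at an adjusted p under 0.05, 59 members were higher and 1 lower in Fes-/- LPS than in Fes-/- PBS macrophages, and 59 were higher and 1 lower in WT LPS than in WT PBS macrophages. The background, over all tested genes, was 34.3% higher and 38.9% lower for Fes-/- cells, and 34.6% higher and 38.8% lower for WT cells. The members' log2 fold changes had a median of 0.28 (1.22-fold) in Fes-/- and 0.26 (1.20-fold) in WT. In both genotypes 82 of 83 members had a fold change above the median of all genes. The 3 LPS libraries lay above the 3 PBS libraries for 55 members in Fes-/- and 71 in WT, as they did for 36.3% and 35.4% of all genes. Without TMM factors, that is per library total, no member was called higher and 81 were called lower in each genotype, with a median of -0.65 in both and the background at 70.0% of genes called lower in Fes-/- and 68.5% in WT. On log2(TPM + 1) with limma-trend 83 members were called lower in Fes-/- and 82 in WT, with medians of -0.68 and -0.67, against 70.9% and 69.2% of all genes. There 49 and 42 members lay above the median of all genes, a median that the added 1 draws towards 0 for low genes. The count of WT calls moved most with 1 library: without WT LPS 1 it was 36 higher and 1 lower, while leaving out any other gave 44 to 71 higher. Over all genes 5281 of 16302 were called higher without WT LPS 1. With no filter on low counts 30 members were higher and 1 lower in WT, where 5415 of 28358 genes were called higher and 6729 lower.

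**Figure D3:**
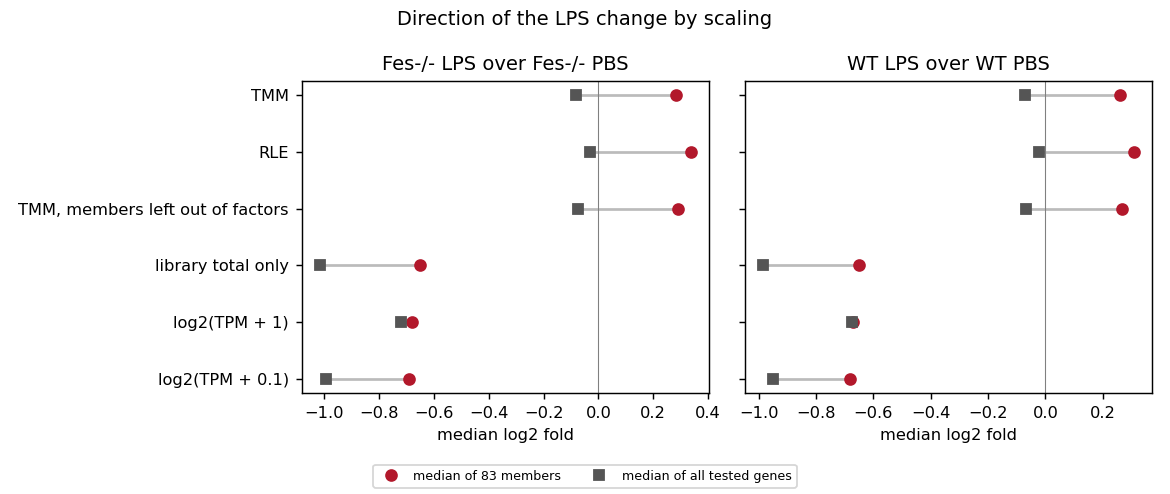
Median log2 fold change, LPS over PBS, of the 83 members (circles) and of all tested genes (squares) under 6 scalings, for Fes-/- (left) and WT (right). The members' median is positive under the 3 factor-based scalings and negative under the other 3, and it lies to the right of the all-gene median by the least under log2(TPM + 1).

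Among the small-subunit genes 23 of 31 were called higher in Fes-/- and 22 of 31 in WT, with medians of 0.33 and 0.29 and none called lower. Rps20, a protein of the head of the small subunit, had 323, 345 and 279 CPM in Fes-/- LPS and 228, 195 and 242 CPM in Fes-/- PBS libraries. In WT it had 308, 305 and 326 CPM under LPS and 227, 203 and 267 CPM under PBS. The LPS libraries all lay above the PBS libraries, with log2 fold changes of 0.51 ± 0.11 in Fes-/- and 0.43 ± 0.11 in WT (SE; edgeR adjusted p = 0.00071 and 0.0027). Rps13 had 221, 221 and 211 CPM in Fes-/- LPS and 153, 137 and 176 CPM in Fes-/- PBS libraries, a change of 0.49 ± 0.09 (edgeR adjusted p = 0.000187). In WT it had 232, 218 and 217 CPM under LPS and 172, 149 and 173 CPM under PBS, a change of 0.43 ± 0.09 (edgeR adjusted p = 0.000568). These groups did not overlap either. Rps9 was higher by 0.48 in Fes-/- and 0.43 in WT.

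Small-subunit proteins with known further roles were called in part. Rps6, the substrate of the S6 kinases below mTORC1, was higher by 0.33 ± 0.08 in Fes-/- and 0.26 ± 0.08 in WT (edgeR adjusted p = 0.00129 and 0.00666), the WT call ending with no filter on low counts (0.162). Rps14, whose loss causes the anaemia of the human 5q- syndrome, was higher by 0.35 and 0.38, and Rps27a, made as a fusion with ubiquitin, by 0.37 and 0.33. Rps3, also known to bind NF-kB p65, was called higher in Fes-/- (0.20, adjusted p = 0.0459), a call that ended on leaving out any of 8 libraries (0.0502 to 0.134), and in WT its change was 0.19 (adjusted p = 0.0632, and 0.00901 by DESeq2). Rps19 and Rps26, mutated in human Diamond-Blackfan anaemia, were called in neither genotype, with changes of 0.15 and 0.13 in Fes-/- and 0.19 and 0.18 in WT, although DESeq2 called Rps19 in both (adjusted p = 0.0434 and 0.0182). Rpsa, the laminin receptor homologue at the mRNA exit, had 747, 756 and 773 CPM in Fes-/- LPS and 665, 658 and 803 CPM in Fes-/- PBS libraries, which overlapped, and was not called in either genotype (0.10 ± 0.09 and 0.04 ± 0.09), although it was called higher in Fes-/- without Fes-/- PBS 3 (adjusted p = 0.0294).

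Of the 42 large-subunit genes 31 were called higher in Fes-/- and 29 in WT, with medians of 0.26 and 0.25, and Rpl13a was the only one called lower in each. Rpl27 had 149, 140 and 129 CPM in Fes-/- LPS and 96.2, 92.7 and 103 CPM in Fes-/- PBS libraries, and 147, 135 and 139 CPM in WT LPS and 102, 89.1 and 107 CPM in WT PBS libraries. Its LPS libraries lay above the PBS libraries in both genotypes, with log2 fold changes of 0.52 ± 0.08 and 0.50 ± 0.08 (edgeR adjusted p = 4.72e-05 and 6.84e-05). Rpl39, a small protein of the peptide exit tunnel, was higher by 0.50 ± 0.15 in Fes-/- and 0.47 ± 0.15 in WT (adjusted p = 0.00797 and 0.0114). Its WT call ended without WT LPS 2 (0.0523) and with the replicate number as a block (0.0622). Rpl38, known in mouse embryos for the translation of Hox mRNAs, was higher by 0.49 and 0.44, and Rpl15 by 0.45 and 0.40.

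Rpl5, which with Rpl11 carries the 5S rRNA into the large subunit and binds MDM2, was higher by 0.31 in both genotypes (edgeR adjusted p = 0.00176 in Fes-/- and 0.00188 in WT), the WT call ending with no filter on low counts (0.067). Rpl11 changed by 0.24 in Fes-/- (adjusted p = 0.024) and 0.17 in WT (0.0941, not called, but 0.0227 by DESeq2), and its Fes-/- call ended without any of 4 libraries (0.052 to 0.0712). Rpl23 and Rpl26, further partners of the p53 pathway, were higher by 0.34 and 0.31 in Fes-/- and 0.34 and 0.27 in WT, where the call of Rpl26 ended with no filter (0.138). Rpl10, which joins last in large-subunit maturation, changed by 0.22 and 0.21, called in Fes-/- (adjusted p = 0.0442) and not in WT (0.0541, but 0.0112 by DESeq2). Its Fes-/- call ended on leaving out any of 7 libraries (0.0548 to 0.143). Rpl35 was called in neither genotype (0.21 and 0.19), while DESeq2 called it in both (0.0122 and 0.026), as did edgeR in Fes-/- with the replicate number as a block (0.0264). Rpl3 of the peptidyl transferase centre and Rpl10a of the L1 stalk were close to 0 in both genotypes. Rpl3 had 596, 607 and 606 CPM in Fes-/- LPS and 570, 521 and 653 CPM in Fes-/- PBS libraries, a log2 fold change of 0.05 ± 0.09 with a 95% interval of -0.13 to 0.23. In WT it had 626, 640 and 606 CPM under LPS and 607, 579 and 626 CPM under PBS, a change of 0.05 ± 0.09.

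Rpl13a fell on every scale tried. It had 5.02, 4.45 and 4.00 CPM in Fes-/- LPS and 5.75, 7.54 and 7.93 CPM in Fes-/- PBS libraries, and 4.65, 4.21 and 5.78 CPM in WT LPS and 6.51, 7.34 and 7.15 CPM in WT PBS libraries. The LPS libraries lay below the PBS libraries in both genotypes. The log2 fold change was -0.65 ± 0.15 in Fes-/- and -0.52 ± 0.15 in WT (edgeR adjusted p = 0.00136 and 0.00703), and both calls held under each of the alternative tests, scalings and filters tried and without each library in turn. Its counts were 189 to 740 per library, and as given above part of its exons lies under a gene model at 0 counts, so a change in the mix of its transcript forms was not tested. Rps10, at 57 to 156 counts, had 1.43 to 1.59 CPM in Fes-/- LPS and 1.39 to 1.55 CPM in Fes-/- PBS libraries, and was called in neither genotype.

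The P-stalk genes were called in part. Rplp0, the stalk base, was higher by 0.26 ± 0.09 in Fes-/- and 0.24 ± 0.09 in WT (edgeR adjusted p = 0.0169 and 0.0243), and Rplp2 by 0.41 ± 0.11 and 0.32 ± 0.11 (0.00329 and 0.0151). Both WT calls ended without WT PBS 2 or WT LPS 1 (0.0614 and 0.0919 for Rplp0, 0.0542 and 0.06 for Rplp2), and the calls of Rplp0 in both genotypes ended with no filter on low counts (0.0947 and 0.269). Rplp1 had a change of 0.16 in Fes-/- (adjusted p = 0.123), where DESeq2 (0.0224), RLE factors (0.0368) and the fit without Fes-/- PBS 3 (0.00808) called it, and was called in WT (0.22, adjusted p = 0.0426), a call that ended without any of 8 libraries (0.0519 to 0.167).

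The paralogs and copies had the highest class median, 0.48 in Fes-/- and 0.45 in WT, with 3 of 6 called higher in Fes-/- and 5 of 6 in WT. Their median SE was 0.17 in both genotypes, against 0.09 over all members. The class holds the low-count pseudogenes Rps4l, Rps3a3 and Rpl37rt, so its median does not describe paralogs alone. Rpl7l1, a paralog of Rpl7 known from large-subunit assembly, had 98.1, 94.4 and 92.9 CPM in Fes-/- LPS and 69.4, 66.5 and 66.9 CPM in Fes-/- PBS libraries. In WT it had 98.8, 89.6 and 97.0 CPM under LPS and 69.2, 58.4 and 68.4 CPM under PBS. The groups did not overlap, and the changes were 0.49 ± 0.08 and 0.54 ± 0.08 (edgeR adjusted p = 3.01e-05 and 1.17e-05). Rpl22l1, which can take the place of Rpl22 in the ribosome, was higher by 0.48 ± 0.15 in Fes-/- and 0.43 ± 0.15 in WT (adjusted p = 0.00848 and 0.0177), the WT call ending without any of 4 libraries (0.051 to 0.0777). Rpl22 itself was called in neither genotype (0.11 and 0.15), although DESeq2 called it in WT (0.049) and edgeR in Fes-/- without Fes-/- PBS 3 (0.0315). The TPM ratio of Rpl22l1 to Rpl22 was 0.411, 0.454 and 0.356 in Fes-/- LPS and 0.363, 0.271 and 0.306 in Fes-/- PBS libraries, and 0.287, 0.393 and 0.393 in WT LPS and 0.268, 0.272 and 0.337 in WT PBS libraries. In each genotype the LPS and PBS ratios overlapped. The ratio of Rpl7l1 to Rpl7 was 0.162, 0.154 and 0.168 in Fes-/- LPS and 0.149, 0.166 and 0.133 in Fes-/- PBS libraries, which overlapped. In WT it was 0.160, 0.148 and 0.165 under LPS and 0.139, 0.128 and 0.130 under PBS, with every LPS library above every PBS library.

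Rps27l, known as a p53 target, was called higher in WT (0.35, edgeR adjusted p = 0.012, and 0.0594 without WT LPS 1) and not in Fes-/- (0.21, adjusted p = 0.0985). In Fes-/- it was called by DESeq2 (0.0485), with RLE factors (0.0439), with the replicate number as a block (0.0193), in a fit of the Fes-/- libraries alone (0.0128) and without any of 3 libraries (0.0272 to 0.049). Its TPM ratio to Rps27 was 0.462, 0.521 and 0.482 in Fes-/- LPS and 0.525, 0.642 and 0.532 in Fes-/- PBS libraries, lower in every LPS library, and 0.533, 0.375 and 0.503 in WT LPS and 0.522, 0.418 and 0.496 in WT PBS libraries, which overlapped. The difference in the LPS change of Rps27l between the genotypes was not called (-0.13 ± 0.16, adjusted p = 1.0). Among the low copies, Rps4l was called in both genotypes (0.53 and 0.48, adjusted p = 0.027 and 0.0447), and without any of 3 libraries in Fes-/- (0.0615 to 0.2) or any of 7 in WT (0.0521 to 0.135) it was not. Rps3a3 was called in WT (0.55, adjusted p = 0.0406) and not in Fes-/- (0.47, 0.0712), and its WT call ended without any of 4 libraries (0.0507 to 0.262). In Fes-/- DESeq2 called it (0.0327), as did edgeR without WT LPS 2 (0.0489) and without Fes-/- LPS 3 (0.0264). Rpl37rt had changes of 0.04 and -0.03. Rps19bp1, the member that is no ribosomal protein, had changes of 0.21 and 0.25 and was called in neither genotype, but DESeq2 called it in both (0.0416 and 0.0213), as did edgeR in WT with the replicate number as a block (0.0246).

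**Figure D4:**
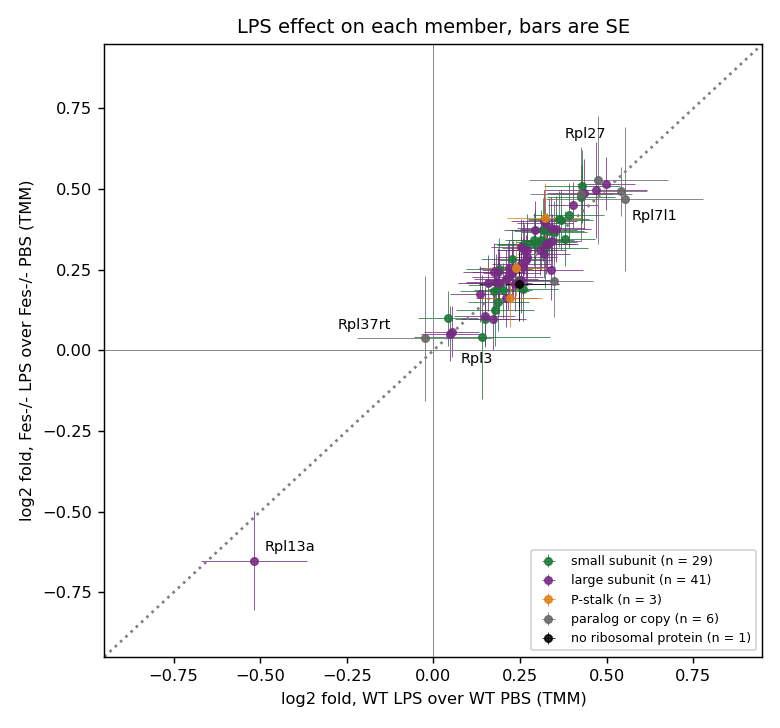
Log2 fold change, LPS over PBS, of 80 of the 83 members on the TMM scale in WT (x axis) and in Fes-/- (y axis), with SE bars and the line of equality dotted. Most members lie between 0 and 0.6 in both genotypes, and Rpl13a lies alone at -0.52 in WT and -0.65 in Fes-/-.

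The changes of the members were set side by side for the 2 genotypes, which share no library. Of the 59 called higher in each, 52 were called in both (52 of 59 in each list), and 16 were called neither way in either genotype. Across the 83 members the changes had a Pearson r of 0.96 and a Spearman rho of 0.93, as a description, since members share libraries and scaling factors (0.93 and 0.92 over the 82 besides Rpl13a). Of the 10 highest members 9 were shared, as were 9 of the 10 lowest. The same overlap and correlations were not computed over all genes, of which 34.3% in Fes-/- and 34.6% in WT were called higher. Only 0.019% of all genes were called for a different LPS change, so this agreement is not shown to be particular to the members. Over the 74 subunit and stalk members besides Rpl13a and Rps10 the changes ran from 0.05 to 0.57 in Fes-/- with an SD of 0.12, and the median SE of 1 member was 0.09. In WT they ran from 0.04 to 0.54 with an SD of 0.10 and the same SE. The Spearman rho of the change with exonic length was 0.02 in Fes-/- and -0.11 in WT, with mean count -0.10 and -0.19, and with the share of words found elsewhere -0.08 and -0.13.

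To compare members with each other, each library was scaled to the members' own summed count, which centres them by construction. Then 6 members were called in Fes-/- and 5 in WT, where 72.2% and 72.0% of all genes were called either way. The centring takes out any change common to the members, so these counts cannot be set against those of all genes. Among the called members Rpl27 (0.23 and 0.24) and Rps13 (0.21, called in Fes-/-) stood above the members' total, as did Rpl7l1 in WT (0.29). Rpl13a (-0.93 and -0.78), Rpl3 and Rpl10a (both -0.22 in Fes-/-) and Rpsa (-0.22 in WT) stood below it. The TPM of the small subunit divided by that of the large subunit was 0.697 ± 0.007 in Fes-/- LPS, 0.681 ± 0.017 in Fes-/- PBS, 0.694 ± 0.008 in WT LPS and 0.681 ± 0.012 in WT PBS libraries (SD, n = 3 each), differences of about the SD of the PBS groups.

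Other measures moved with LPS beside the members, the marker sums on the TMM scale and the mitochondrial share per library total. Neither was read on the other scale. The TMM factors given above were smaller under LPS than under PBS. A marker sum lower under LPS on the TMM scale is therefore also lower per library total. The direction of a sum higher under LPS, or of the mitochondrial share, can differ on the other scale, as it did for the members. The 10 markers of dividing cells, all over 1 CPM, summed to 1711 to 1774 CPM in Fes-/- LPS and 2809 to 3014 CPM in Fes-/- PBS libraries, and 1487 to 1665 CPM in WT LPS and 2493 to 2798 CPM in WT PBS libraries. Mitochondrially encoded genes held 1.16% to 1.39% of counts in Fes-/- LPS and 1.55% to 2.06% in Fes-/- PBS, and 1.27% to 1.43% in WT LPS and 1.83% to 2.35% in WT PBS libraries. The 5 B cell markers summed to 1.82 to 2.47 CPM in Fes-/- LPS and 5.96 to 6.55 CPM in Fes-/- PBS, and to 2.67 to 3.21 CPM in WT LPS and 6.00 to 7.94 CPM in WT PBS libraries. The 6 dendritic cell markers summed to 1.89 to 2.28 CPM in Fes-/- LPS and 1.03 to 1.21 CPM in Fes-/- PBS, and to 1.38 to 1.80 CPM in WT LPS and 0.841 to 1.13 CPM in WT PBS libraries. The LPS and PBS sums of these 3 lists lay apart in both genotypes, lower under LPS for dividing and B cells and higher for dendritic cells. The fibroblast sums also lay apart, higher under LPS and at most 1.88 CPM, as did the erythroid sums, lower under LPS and at most 0.156 CPM. The T cell sums (0.653 to 7.005 CPM), the neutrophil and precursor sums (3.56 to 8.05 CPM) and the macrophage sums (9786 to 15950 CPM) overlapped between LPS and PBS in each genotype. The part of any of these in the members' change was not tested.

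Genes that work with the ribosomal proteins were read from the same test, against the background given above of 34.3% of all genes called higher and 38.9% lower in Fes-/- and 34.6% and 38.8% in WT. Fau, whose ribosomal protein is made as a ubiquitin-like fusion and is outside the naming rule, was higher by 0.23 in Fes-/- and 0.25 in WT. Of 19 other translation genes whose mRNAs are known to carry the TOP tract, 12 were called higher and 1 lower in Fes-/-, and 11 higher and 1 lower in WT. Among them Eif2s3x, a subunit of the initiator tRNA carrier eIF2, was higher by 0.86 and 0.94 and Btf3, of the nascent chain complex, by 0.65 and 0.61, while the helicase cofactor Eif4b was lower, at -0.89 and -0.95. Of 78 tested mitochondrial ribosomal protein genes 29 rose (37.2%) and 22 fell (28.2%) under LPS in Fes-/-, and 26 rose (33.3%) and 23 fell (29.5%) in WT, with medians of 0.02 and 0.03. The shares that rose were near the background. Mrpl52 was higher by 2.07 and 2.20, and Mrpl49 was lower, at -1.33 and -1.45. Without the TMM factors 17 and 18 of the 19 TOP genes and 73 and 70 of the mitochondrial genes were called lower. On that scale 70.0% of all genes in Fes-/- and 68.5% in WT were called lower. There Btf3 was called lower (-0.29 and -0.30), Eif2s3x was not called, and Mrpl52 stayed higher.

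Genes of the TOP control pathway were called in both directions. Of 18, 10 were called higher and 5 lower in Fes-/-, and 10 and 6 in WT. Larp1, which binds TOP tracts, was higher by 3.27 ± 0.16 in Fes-/- and 3.40 ± 0.16 in WT (edgeR adjusted p = 1.2e-10 and 8.42e-11). Eif4g2, a relative of the eIF4G scaffold, was higher by 1.89 and 1.86. Eif4ebp2, a repressor of cap-dependent initiation that mTORC1 switches off, was lower, at -2.55 and -2.72, as was Mlst8, an mTORC1 subunit, at -1.97 and -2.15. Without the factors the direction of these 4 and their calls held, with Larp1 at 2.33 and 2.49. Of 24 cytosolic initiation factors 18 were called higher and 1 lower in each genotype, with Eif1a at 2.17 and 2.23 and Eif6, which keeps free large subunits from joining, at 1.64 and 1.84. Of 11 tested ribosomal protein chaperones and assembly partners 4 were called higher and 1 lower in each genotype, with Ltv1 of small-subunit assembly at 1.73 and 1.79. Of 17 genes of ribosome stalling, rescue and dormancy 12 were called higher and 2 lower in Fes-/-, and 9 and 2 in WT, led by Ascc3 (1.92 and 1.99), which splits collided ribosomes, Gtpbp2 (1.26 and 1.24) and Ifrd1 (2.43 and 2.27). Without the factors Eif1a, Eif6, Ltv1, Ascc3, Gtpbp2 and Ifrd1 were still called higher in both genotypes. On that scale 14 of 24 initiation factors, 7 of 11 chaperones and 13 of 17 stalling genes were called lower in each genotype. The background there was 70.0% of all genes called lower in Fes-/- and 68.5% in WT.

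Between genotypes no member was called. Under PBS 0 of 83 members were called in Fes-/- against WT macrophages by edgeR, 0 had an unadjusted p under 0.05 and DESeq2 called 0, where edgeR called 0.0823% of all genes. Under LPS the counts were likewise 0, 0 and 0, where 0.108% of all genes were called, and averaged over both treatments 0, 0 and 0, where 0.165% were called. Over all 15801 genes 605 had an unadjusted edgeR p under 0.05 under PBS, 1030 under LPS and 1385 in the averaged comparison. The members' unadjusted counts rested on 1 library. Without Fes-/- PBS 3, 13 members had an unadjusted p under 0.05 under PBS and 19 in the averaged comparison, with 0 called by edgeR. There the counts over all 16196 tested genes were also higher, at 1445 and 2077. Without WT PBS 2 they were 1 and 2 members, and 373 and 1064 of all 16197 tested genes. The summed level was 0.960 of WT in Fes-/- macrophages under PBS and 0.973 under LPS on the TMM scale, within 1 SD of the WT mean in each case. The smallest edgeR p under PBS was that of Rpl27a (-0.14 ± 0.09, adjusted p = 0.975), followed by Rplp2 (-0.17 ± 0.11) and Rpl35a (-0.13 ± 0.09). Under LPS it was that of Rps12 (-0.14 ± 0.10, adjusted p = 0.87), followed by Rpl36a and Rpl22 (-0.12 and -0.11). The median log2 fold change was -0.06 under PBS and -0.04 under LPS, with 73 and 66 members below 0, and these signs move together through the scaling factors. The PBS median was -0.14 without Fes-/- PBS 3, -0.11 without WT PBS 2, -0.03 without WT PBS 3 and -0.02 without Fes-/- PBS 2. The LPS median was -0.05 without WT LPS 2, -0.0088 without Fes-/- LPS 3 and 0.0026 without WT LPS 1, so its sign rested on that library.

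The intervals bound what could have been missed. The 95% interval of the Fes-/- over WT change lay within 0.5 on the log2 scale either way for 81 members under PBS and 80 under LPS, and within 1.25-fold either way for 69 and 73. Rps10 had the widest reach under PBS, up to 0.62. No member's 3 Fes-/- libraries lay wholly on one side of the 3 WT libraries under PBS, as 6.82% of all genes did. Under LPS 6 members lay wholly lower in Fes-/-, namely Rps21, Rpl36a, Rplp0, Rps12, Rpl23a and Rps29, where 11.4% of all genes lay apart in either direction. Rps12 had the smallest p of the averaged comparison (-0.14 ± 0.07, edgeR adjusted p = 0.586).

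**Figure D5:**
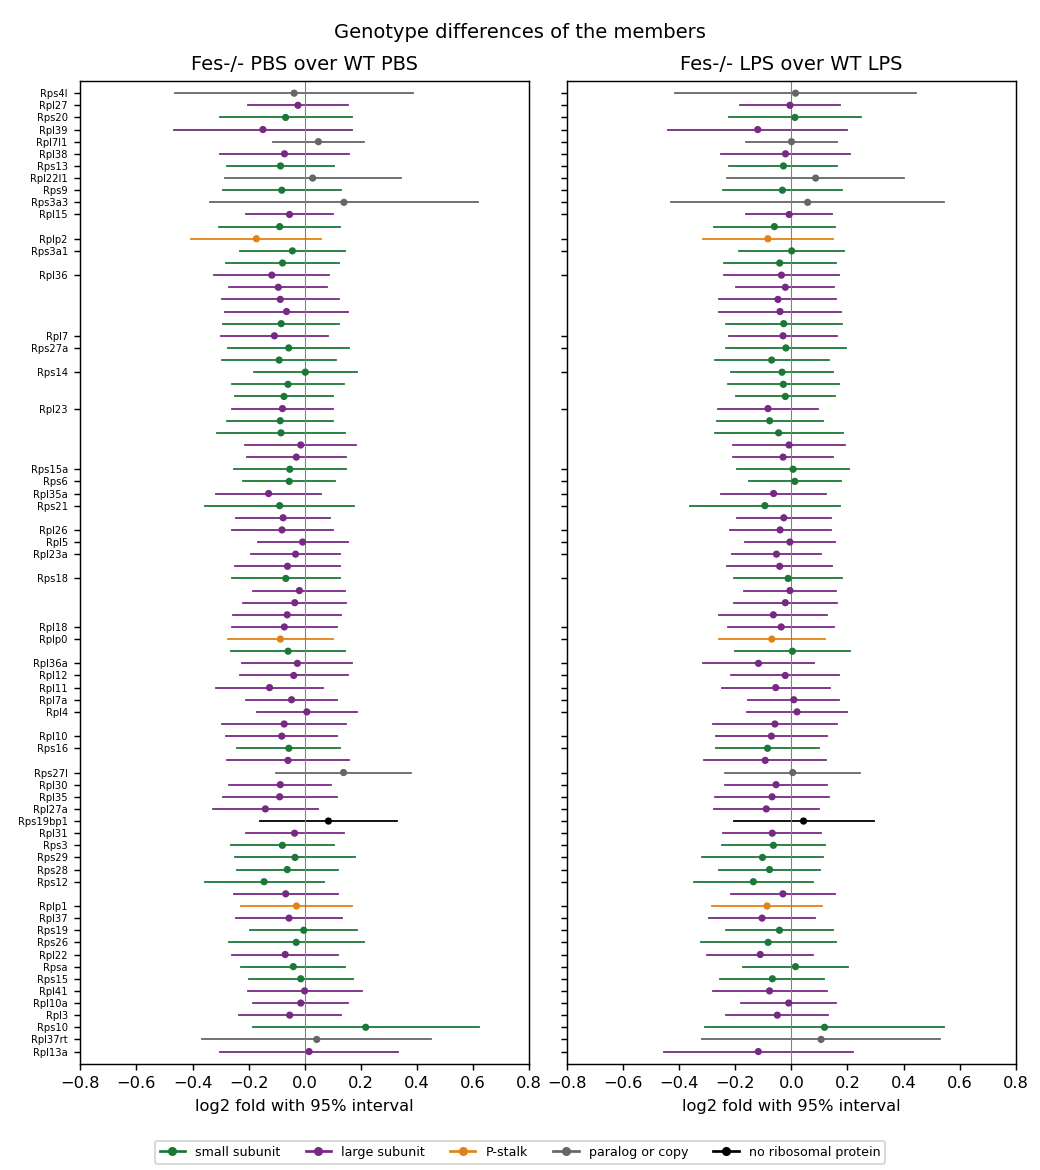
Log2 fold change, Fes-/- over WT, of 80 of the 83 members under PBS (left) and LPS (right) with the 95% interval, coloured by class and ordered by the LPS change in Fes-/-, with names for those described in the text. Every interval includes 0, and the widest belong to low-count members such as Rps10, Rps3a3 and Rps4l.

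No member's LPS change was called different between the genotypes: 0 were called by edgeR in the test of the difference, 0 had an unadjusted p under 0.05 and DESeq2 called 0, where 0.019% of all genes were called. Over all 15801 genes 464 had an unadjusted edgeR p under 0.05 for this difference. The differences ran from -0.13 to 0.09 with a median of 0.02 (-0.03 to 0.10 on leaving out each library) and a median SE of 0.127, and the interval lay within 0.5 on the log2 scale for 77 members. The 14 members on chromosome 7, which also carries Fes, were read apart. Their Fes-/- over WT changes ran from -0.17 to 0.02 under PBS and -0.12 to 0.03 under LPS, with medians of -0.07 and -0.04, where the other 69 members had medians of -0.06 and -0.04.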

How the data were processed

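Poly-A RNA of 12 macrophage libraries was sequenced, 3 libraries in each group. The sample titles and library names give no batch. The authors deposited raw counts per gene and TPM (transcript abundance scaled to a fixed library sum) for 55487 genes. The submitters' processing notes name the aligner STAR (2.7.8a), Picard (2.9.0) and, for R 4.1.12, the package DESeq2 (1.34.0), and they list the builds GRCm38 and mm9 with no roles. The lengths implied by the deposited TPM values lay within 1% of GRCm38 exonic lengths for 11022 of 11186 genes, so GRCm38 positions were used.

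Counts were scaled with TMM factors and tested with the edgeR 4.0.16 quasi-likelihood test (R 4.3.3) in 1 model of the 4 groups, over 15801 genes kept by its expression filter. P-values were adjusted by Benjamini-Hochberg over these genes, and an adjusted p under 0.05 was a call. Sums are CPM with TMM factors. limma 3.58.1 and DESeq2 1.42.0 served as alternatives, beside other scalings, filters, sample subsets, a replicate block and leaving out each library. The fit was checked on simulated data with few changed genes in 1 group, which does not test the scaling under a change as wide as that with LPS. Same-numbered LPS and PBS libraries deviated together weakly, with correlations of 0.137 to 0.166 in WT and 0.068 to 0.189 in Fes-/-. The deviations are from means of 3 libraries, which ties these correlations to each other, so they do not establish a pairing. No label states a pairing, and the main test used none.

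The members and lists were chosen with earlier results of these data known. Named were the P-stalk, paralogs, members with known roles, the 10 highest and 10 lowest called members per comparison (the 3 smallest p where fewer than 3 were called) and up to 3 genes per list. Of the highest and lowest, those without a result of their own in the text are counted in their class. A few members and list genes enter the counts and sums but are not reported here one by one.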

Additional observations from a re-analysis of the deposited data

How the results depend on the processing

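The direction of the LPS change depended on the scale. With no factor beyond the library total 0 members were called higher and 81 lower in Fes-/- and the same counts in WT, with medians of -0.65 in both. On log2(TPM + 1) it was 0 higher and 83 lower in Fes-/- and 0 higher and 82 lower in WT, with medians of -0.68 and -0.67. On log2(TPM + 0.1) it was again 0 and 83, and 0 and 82, with medians of -0.69 and -0.68. There 11224 of 15801 genes were called lower in Fes-/- and 10993 in WT. Per library total 70.0% of all genes in Fes-/- and 68.5% in WT were called lower, and on log2(TPM + 1) 70.9% and 69.2%. Scaled to the members' own total, which centres them by construction, 6 members were called in Fes-/- (3 higher, 3 lower, median 0.0047) and 5 in WT (3 higher, 2 lower, median 0.0021). Only members named by rule were read for a change of sign on that scale, so the lists here are not complete. Those called higher on the TMM scale that had a change below 0 in Fes-/- were Rpl7a -0.0389, Rpl4 -0.0442, Rpl10 -0.0584, Rps16 -0.0558, Rpl30 -0.0645, Rpl27a -0.0672, Rpl31 -0.0746, Rps3 -0.076, Rpl11 -0.0321 and Rplp0 -0.0211. In WT they were Rpl31 -0.0191, Rpl12 -0.0266, Rps18 -0.0299, Rpl4 -0.0349, Rplp1 -0.0408, Rpl18 -0.0383, Rpl37 -0.0479, Rps28 -0.0588, Rpl7a -0.0746, Rps6 -0.000853 and Rplp0 -0.0199. On log2(TPM + 1), relative to the median of all genes, those named by rule and called higher on the TMM scale that lay below 0 were Rpl7a -0.0129, Rpl4 -0.0168, Rpl10 -0.0312, Rps16 -0.0321, Rpl30 -0.034, Rpl27a -0.0409, Rpl31 -0.0501, Rps3 -0.0498 and Rpl11 -0.00628 in Fes-/-. In WT they were Rpl31 -0.0268, Rpl12 -0.0335, Rps18 -0.0372, Rpl4 -0.0442, Rplp1 -0.0481, Rpl18 -0.0439, Rpl37 -0.055, Rps28 -0.065, Rpl7a -0.0812, Rps6 -0.0078 and Rplp0 -0.0285.

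With no filter on low counts 31 members were called in WT, 30 of them higher, and 42 higher and 1 lower in Fes-/-. Of the 28358 genes tested there, 5415 were called higher in WT and 5587 in Fes-/-. The cause of the lower member counts was not tested. RLE factors called 70 members higher in Fes-/- and 74 in WT, DESeq2 72 and 75, and TMM factors computed without the members 59 and 59. Over all 15801 genes RLE factors called 5696 and 5728 higher, DESeq2 5734 and 5780, and TMM factors without the members 5455 and 5490. Leaving out each library in turn gave 48 to 74 calls in Fes-/- (47 to 73 higher, 1 lower, medians 0.26 to 0.37) and 37 to 72 in WT (36 to 71 higher, 1 lower, medians 0.22 to 0.32). Over all genes these runs called 5166 to 5712 higher in Fes-/- and 5214 to 5656 in WT, of 16159 to 16302 tested. Only leaving out WT LPS 1 moved a count of members by over 1.5 times, to 37 calls in WT, 36 of them higher.

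With the replicate number as a block 66 members were higher and 1 lower in Fes-/-, and 60 higher and 1 lower in WT. Over all 15801 genes 5599 were then called higher in Fes-/- and 5601 in WT. The block added calls of Rpl35 and Rps27l in Fes-/- (adjusted p = 0.0264 and 0.0193) and of Rps19bp1 in WT, and ended that of Rpl39 in WT, with no other change of call among the genes named by rule. The deviations of same-numbered libraries correlated at 0.068 to 0.189 in Fes-/- (LPS with PBS), each above the correlation with another number, and at -0.156 to 0.016 between genotypes. Whether equal numbers mark the same mouse is not stated. The block left the genotype comparisons at 0 calls. Every alternative run gave 0 member calls between genotypes and 0 for the difference in LPS change. Rpl13a was called lower under every alternative run.

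Precision is limited by 3 libraries a group and, for Rps10, Rps3a3, Rps4l and Rpl13a, by low counts. The largest replicate spread was in Fes-/- PBS, where the median SD over members was 11.3% of the mean. Shared exons and processed copies can lower or split the counts of members, and the sources used here do not state how such reads were counted. No measure of total RNA per cell was used here.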
